A study of Xenopus laevis with 8 samples.

Results

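The expression of L and S homeologues was compared within whole brains of control *Xenopus laevis* tadpoles. Rows of the count table with the same gene symbol and the endings .L and .S were paired, which gave 8866 pairs. The 7584 pairs whose L and S counts together averaged at least 2 CPM (the count of a gene scaled to its library's total) over the control pools were kept, and the other 1282 were not examined. The kept pairs are 15168 of the 41881 rows of the table. The pairs nearest to the limit of 2 CPM had 1.972 to 1.993 CPM on the lower side and 2.003 to 2.017 CPM on the upper side. A further 3154 L rows and 1102 S rows with at least 2 CPM had no partner row of the same symbol.

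*X. laevis* is an allotetraploid frog that arose when 2 related diploid species hybridised and the genome of the hybrid doubled. Each ancestral chromosome is therefore present as a longer (L) and a shorter (S) homeologous chromosome, and many genes are present as an L and an S copy, called homeologues. Over evolutionary time one homeologue can be lost, silenced or used in other tissues, and the S chromosomes are known to have lost more genes than the L chromosomes.

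The control pools were siblings injected at the one-cell stage with only Cas9, labelled wild type, and raised to Nieuwkoop and Faber stage 47 (NF47). There were 4 control pools, labelled 1, 2, 4 and 5, each of 4 whole brains. The other 4 libraries of the series, labelled 3, 4, 7 and 9, were pools of 4 brains from *neurod2* CRISPants, F0 mosaic animals of the same sibship injected with Cas9 and a guide RNA against both *neurod2* homeologues. Every animal came from a single sibship, so the spread between pools is that between groups of siblings, and sex was not given in the labels. Values per pool are given below in the order 1, 2, 4 and 5, and SD are over n = 4 control pools.

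Total counts of the control pools ranged from 20985937 to 25937707, and the kept pairs held 72.7 to 73.1% of them. No 2 replicate pools matched within sampling noise. Summed markers of neurons reached 5584 to 6063 CPM and markers of glia 2835 to 3106 CPM in the control pools, against 6.58 to 8.67 CPM for muscle, 4.99 to 10.3 CPM for photoreceptors and 3.75 to 4.80 CPM for liver. Blood markers summed to 164 to 268 CPM and skin and cartilage markers to 144 to 214 CPM. The rhodopsin copies *rho.L* and *rho.S* were at 0 in all control pools, as were *alb.S*, *fga.L* and *fga.S* of the liver list.

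On 4 chromosomes whole control pools stood apart in the level of the paired copies. For every copy with a mean of at least 10 CPM, the log2 CPM of a pool was set against the median of the control pools and centred on the pool's median over all copies. Copies on chromosome 4L had median log2 deviations of -0.02, -0.02, 0.12 and -0.02, and in control pool 4 87.4% of these 539 copies lay above 0. In 6 consecutive parts of 4L the median deviation of control pool 4 was between 0.11 and 0.15. On 3L the deviations were -0.06, -0.06, 0.05 and 0.07, while the homeologous 3S lay between -0.01 and 0.00. On 5S they were -0.06, -0.05, 0.09 and 0.04. In control pool 5 the deviation on 5S was 0.05 to 0.07 in the first 3 parts of the chromosome and -0.00 to 0.01 in the last 3. On 8L control pool 5 was low at -0.07, against 0.03, 0.02 and 0.00 in the other pools, and 16.6% of its copies lay above 0. On the other 14 chromosomes no control pool deviated by more than 0.02 in either direction. The cause of these shifts was not tested. The main counts are also given without chromosome pairs 3, 4, 5 and 8 in the closing section.

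**Figure D1:**
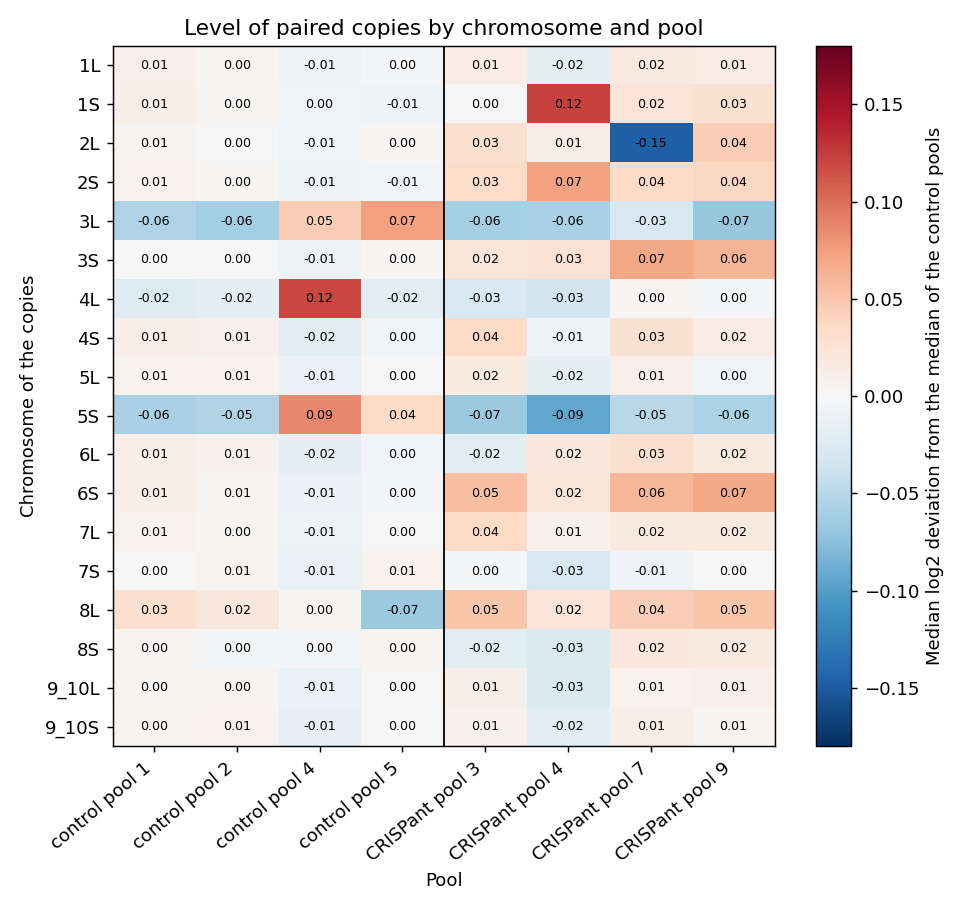
Median log2 deviation (colour and printed value) of the paired copies of each chromosome (rows) in each of the 8 pools (columns), relative to the median of the 4 control pools, for copies with at least 10 CPM. Control pools differ from each other on 3L, 4L, 5S and 8L, with 0.12 on 4L in control pool 4, and among the CRISPants pool 4 is high on 1S and pool 7 low on 2L.

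The L copies supplied slightly more of the mRNA than the S copies. Of the counts in kept pairs, 53.5, 53.5, 53.9 and 53.5% came from L (53.6% ± 0.184, SD, n = 4). For each pair the share of L, meaning the percentage of the pair's counts that came from the L copy, was computed in each pool. The median share over pairs was 54.91, 55.06, 55.45 and 55.03% (55.1% ± 0.234). The L copy had more counts than the S copy in 4665, 4658, 4743 and 4663 pairs and fewer in 2908, 2908, 2826 and 2910. L led in 4 of 4 pools (exact two-sided sign-flip permutation test over pools, p = 0.125, the smallest p that 4 pools allow). Control pool 4, the pool that was high on 4L, had the highest share of L by each of these measures. The direction was the same without pool 4, with a median share of 54.97%, and on chromosome pairs 1, 2, 6, 7 and 9_10 alone, with 54.8%. Transcript lengths were not used here, so a difference in the length of the L and S transcripts enters every share. In bulk brains, copies used side by side in the same cells and copies used in different cells cannot be told apart.

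The share of L was reproducible between pools of siblings. The SD of a pair's share over the control pools had a median of 1.94 percentage points and a 95th percentile of 6.05 points. Shares of all 4 pools lay above 50% in 4235 pairs and below 50% in 2447 pairs, and 902 pairs had shares on both sides of 50% or at it. In edgeR's quasi-likelihood test with the library as a block, L was higher than S in 4189 pairs (55.2% of the pairs tested) and S was higher than L in 2438 pairs (32.1%) at a Benjamini-Hochberg adjusted p under 0.05. L was higher by over 2-fold in 1989 pairs (26.2%) and S in 944 pairs (12.4%). The median log2 ratio of L to S over all pairs was 0.30. When the L and S columns were instead centred on each other by TMM, the median was 0.00 and the calls divided into 3308 for L and 3286 for S, so that L made up 50.2% of the calls in place of 63.2%. Centring removes a shift common to all pairs by construction, and directions below are relative to equal expression unless stated. A call for S under TMM means a lower ratio of L to S than this common shift, and S need not exceed L.

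**Figure D2:**
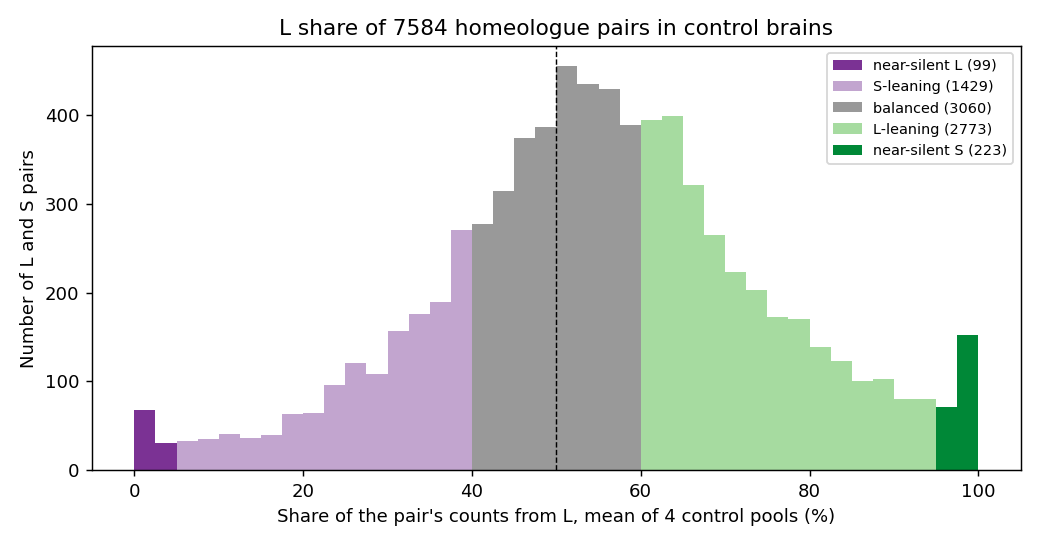
Number of pairs (vertical axis) by the mean share of L over the 4 control pools in percent (horizontal axis, steps of 2.5 points), coloured by class. The 3060 balanced pairs form the middle of a single broad peak whose median is 55.1%, with smaller rises at the right edge (223 pairs of near-silent S) and the left edge (99 pairs of near-silent L).

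Pairs were placed in classes by the mean share of L. Balanced pairs, with 40 to 60% from L, numbered 3060 (40.3%). L-leaning pairs, over 60% and under 95%, numbered 2773 (36.6%) and S-leaning pairs 1429 (18.8%). In 223 pairs (2.94%) the S copy was near-silent, with at most 5% of the counts, and in 99 pairs (1.31%) the L copy was. The limits cut through a continuous range: at 60% the nearest pairs lay at 59.978 to 59.997% and 60.005 to 60.034%, at 40% at 39.982 to 39.997% and 40.021 to 40.046%, at 95% at 94.81 to 94.96% and 95.03 to 95.17%, and at 5% at 4.81 to 4.92% and 5.01 to 5.31%. Of the balanced pairs, L was higher in 1193, S was higher in 910 and 957 did not pass the edgeR test. Limits of 45 to 55% would give 1652 balanced pairs, and limits of 33.3 to 66.7% would give 4655.

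The classes were next set against abundance. Balanced pairs had a median of 54.2 CPM for both copies together, L-leaning pairs 38.4, S-leaning pairs 35.6, near-silent L pairs 20.6 and near-silent S pairs 17.9 CPM. Of 534 pairs with 2 to 5 CPM, 26.6% were balanced, 7.30% had a near-silent S and 3.75% a near-silent L. Of 1865 pairs with at least 100 CPM, 50.7% were balanced, 1.02% had a near-silent S and 0.483% a near-silent L. The median share of L was 58.1% in the first group and 54.1% in the last. Counting error is larger in low pairs, whose share had a median SD of 5.05 points between pools against 1.20 points at 100 CPM and above, and its part in these class shares was not tested.

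Homeologous chromosomes differed little in the median share of L. RefSeq placed both copies of 6481 pairs by symbol, 6479 of them on homeologous chromosomes. The median share was lowest on chromosome pair 2 at 53.0% (822 pairs) and highest on chromosome pair 7 at 56.6% (499 pairs). The median of chromosome pair 4 was 53.7, 53.9, 56.8 and 54.0% over the control pools, that of pair 3 was 54.7, 54.9, 57.1 and 57.5%, and that of pair 5 was 56.4, 56.8, 53.0 and 54.9%. The spreads between pools were thus 3.09, 2.81 and 3.77 points, about the distance between the lowest and the highest chromosome pair. On pairs 1, 2, 6 and 9_10 the pools lay within 0.558 points of each other.

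Of the 10 most abundant pairs 4 were balanced, and most of the 10 are genes of translation and the cytoskeleton. The translation elongation factor *eef1a1* had L values of 3184, 2892, 2869 and 2762 CPM and S values of 3651, 3238, 3486 and 3260 CPM. S was above L in every pool, and the share of L was 46.2% ± 0.883 (log2 ratio -0.22, SE 0.03, edgeR adjusted p = 4.2e-07). The elongation factor *eef2.1* had a share of 60.5% ± 0.466, and *cirbp*, which encodes a cold-inducible RNA-binding protein, 46.4% ± 0.428. The tau gene *mapt*, which encodes a microtubule-binding protein of axons, had 62.8% ± 0.300.

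Actin and tubulin pairs leaned in different directions. The cytoplasmic actin *actb* had a share of 64.3% ± 0.462 and *actg1*, the other cytoplasmic actin, one of 42.0% ± 0.691. The α-tubulin *tuba1a* had 57.6% ± 0.239, while *tuba1b* had 35.2% ± 0.641. The β-tubulin *tubb2b*, with L values of 336, 284, 376 and 332 CPM and S values of 2042, 1975, 1952 and 1950 CPM, had only 14.3% ± 1.48 from L (log2 ratio -2.58, SE 0.06, edgeR adjusted p = 1.91e-12). L and S values did not overlap between pools for any of these genes. Actins and tubulins are families of near-identical genes, and reads that match several members could be divided between copies by the authors' counting, whose multi-mapping setting is not given in the sources used here.

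The pair with the second highest level was *kdm6b*, which encodes a histone H3 lysine 27 demethylase. *kdm6b.L* had 1209, 1210, 1348 and 1315 CPM and *kdm6b.S* 3778, 4238, 3864 and 3739 CPM. S was 3.07-fold higher (log2 ratio of L to S -1.62, SE 0.04, edgeR adjusted p = 1.01e-13).

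In the pairs with a near-silent S copy, the most abundant was *rpl3*, a protein of the large ribosomal subunit. *rpl3.L* had 1714, 1550, 1626 and 1544 CPM and *rpl3.S* 49.97, 76.2, 59.98 and 13.2 CPM. The S copy was thus lowest in control pool 5, and the share of L was 97.0% ± 1.61. A second ribosomal protein gene, *rpl27a*, had 221 to 249 CPM from L and 1.93, 2.63, 2.80 and 2.76 CPM from S (98.9% ± 0.209 from L). RefSeq has both *rpl27a* copies, on chromosomes 7L and 7S, while *rpl3.S* was not found under its symbol.

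Other abundant pairs with near-silent S covered unrelated functions. *syne1*, which encodes nesprin-1, a large protein that links the nucleus to the cytoskeleton, had 232, 243, 253 and 250 CPM from L, and the S row had 0, 0, 1 and 0 counts. The S copy was not found in RefSeq under its symbol. *bcat1*, the cytosolic branched-chain amino acid transaminase, had 233, 233, 236 and 255 CPM from L and 0.193, 0.462, 0.181 and 0.286 CPM from S. RefSeq places *bcat1.L* at 1603744 to 1625073 of chromosome 3L and *bcat1.S* at 1137577 to 1151336 of chromosome 3S of the v10.1 assembly, both as protein-coding genes.

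The splicing factor *sf3a1* had 183 to 188 CPM from L and at most 0.381 CPM from S, and *hgs*, which sorts ubiquitinated cargo at endosomes, had 162 to 172 CPM from L and at most 0.361 CPM from S. *hmga2*, an architectural chromatin protein of progenitor cells, had 120 to 128 CPM from L and 0.116, 0.139, 0.136 and 0.381 CPM from S, with both copies in RefSeq and genomic spans of 55356 and 56133 bases. The uncharacterised *KIAA0513* kept a measurable S copy at 4.70, 3.92, 4.88 and 4.34 CPM against 106 to 120 CPM from L. RefSeq held neither *sf3a1.S* nor *hgs.S* under its symbol, and neither copy of *KIAA0513*. Over all 223 pairs, S had no count in any control pool in 25.

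In the pairs with a near-silent L copy the most abundant was *syt1*, the calcium sensor of synaptic vesicle release. *syt1.S* had 328, 362, 316 and 351 CPM and *syt1.L* 2.35, 1.57, 2.12 and 1.67 CPM, so that S was 173-fold higher (share of L 0.571% ± 0.139). The class was set by the shares in these same pools, and all 99 of its pairs were called for S in the edgeR test. *igsf3*, a membrane protein of the immunoglobulin superfamily, had 227 to 256 CPM from S and 2, 0, 2 and 2 counts from L. *hnrnpul1*, a nuclear RNA-binding protein, had 129 to 144 CPM from S and 0.143 to 0.271 CPM from L, and *eif3f*, a subunit of the translation initiation factor eIF3, had 102 to 112 CPM from S and 0.231 to 0.406 CPM from L. In these pairs the quieter copy was lower in every pool by more than 100-fold. RefSeq held neither *igsf3.L* nor *eif3f.L* under its symbol, and of *syt1* it held the quiet L copy but not the active S copy.

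The remaining named pairs kept more of the L copy. *tpr*, a protein of the nuclear pore basket, had 7.90, 8.82, 7.05 and 6.20 CPM from L and 175 to 190 CPM from S. In RefSeq its L copy spans 26680 bases and its S copy 103215 bases. The retinol carrier *rbp4* had 2.12 to 3.03 CPM from L and 115 to 130 CPM from S, and the interferon-induced membrane protein gene *ifitm1* had 1.04 to 2.26 CPM from L and 105 to 132 CPM from S. The ETS transcription factor *elk4* varied in the S copy, with 187, 46.8, 136 and 147 CPM against 5.98, 4.02, 5.56 and 5.96 CPM from L, and its share of L in control pool 2 was 7.90%. RefSeq gives *elk4.S* a span of 301246 bases and *elk4.L* one of 14517. It gives *ifitm1.S* a span of 38772 bases and *ifitm1.L* one of 2030. The L row was at 0 in all 4 control pools in 9 of the 99 pairs.

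**Figure D3:**
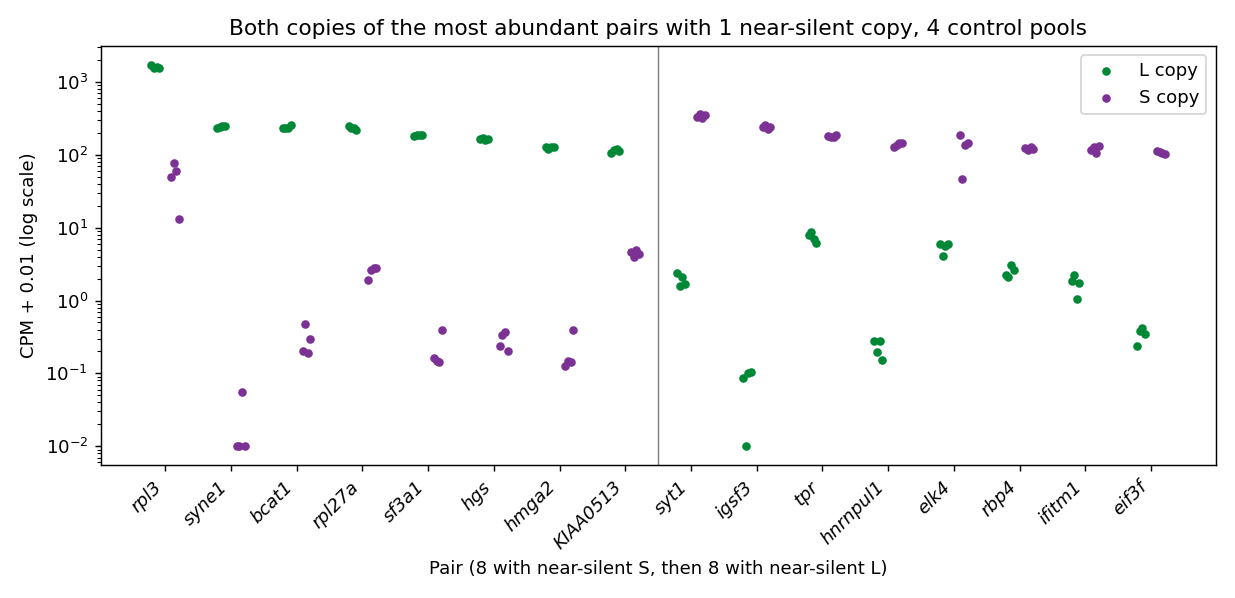
CPM + 0.01 on a log axis of the L copy (green) and the S copy (purple) in each of the 4 control pools for the 8 most abundant pairs with near-silent S (left) and near-silent L (right). The copies are separated in every pool, *syne1.S* had a single count in 1 pool, and *elk4.S* is lower in control pool 2 than in the other 3 pools.

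The gene models of quiet and active copies were compared in RefSeq. Among pairs with near-silent S, RefSeq held the S copy under its symbol in 157 of 223 (70.4%) and the L copy in 204 (91.5%). Among pairs with near-silent L it held the L copy in 70 of 99 (70.7%) and the S copy in 90 (90.9%). Over all kept pairs it held 91.0% of L copies and 88.96% of S copies. Where both copies were matched, the genomic span of L was over 2 times that of S in 21 of 154 near-silent S pairs (13.6%), against 229 of 6481 matched pairs overall (3.53%). The span of S was over 2 times that of L in 12 of 65 near-silent L pairs (18.5%), against 210 of 6481 (3.24%). The opposite mismatch was also above the figures for all matched pairs. The quiet copy had a span over 2 times that of the active copy in 9 of 154 near-silent S pairs (5.84%) and 5 of 65 near-silent L pairs (7.69%). A span includes introns and is not a transcript length. With both copies matched and spans within 2-fold, 124 pairs had a near-silent S and 48 a near-silent L. Whether the gene models or the genes account for the low counts was not tested.

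Pairs were also described by 32 gene lists, which hold 1232 of the kept pairs. For each list the calls, the balanced pairs and the median share are given, to be read beside 55.2% called for L, 32.1% called for S, 40.3% balanced and a median share of 55.1% over all pairs. Of all pairs 2.94% had a near-silent S and 1.31% a near-silent L. The lists differ in abundance, and 50.7% of all pairs with at least 100 CPM were balanced. The median share was 56.7% for pairs with 5 to 20 CPM and 54.1% at 100 CPM and above. List medians ranged from 41.9% to 70.8%. Calls for L outnumbered calls for S in 27 lists and the reverse held in 5, and under TMM the counts were 14 and 17 with 1 tie, 12 lists having turned. Of the pairs first named below, RefSeq lacked the lower copy of *rps2*, *rps21*, *pgk1*, *pcsk6*, *glra1* and *kcnmb3* under its symbol, and both copies of *cacng6*. It also lacked the higher copy of *slit1*, *gria1* and *gria2*, and the L copy of *cacna1a*. Whether gene models account for the counts of the lower copies was not tested.

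**Figure D4:**
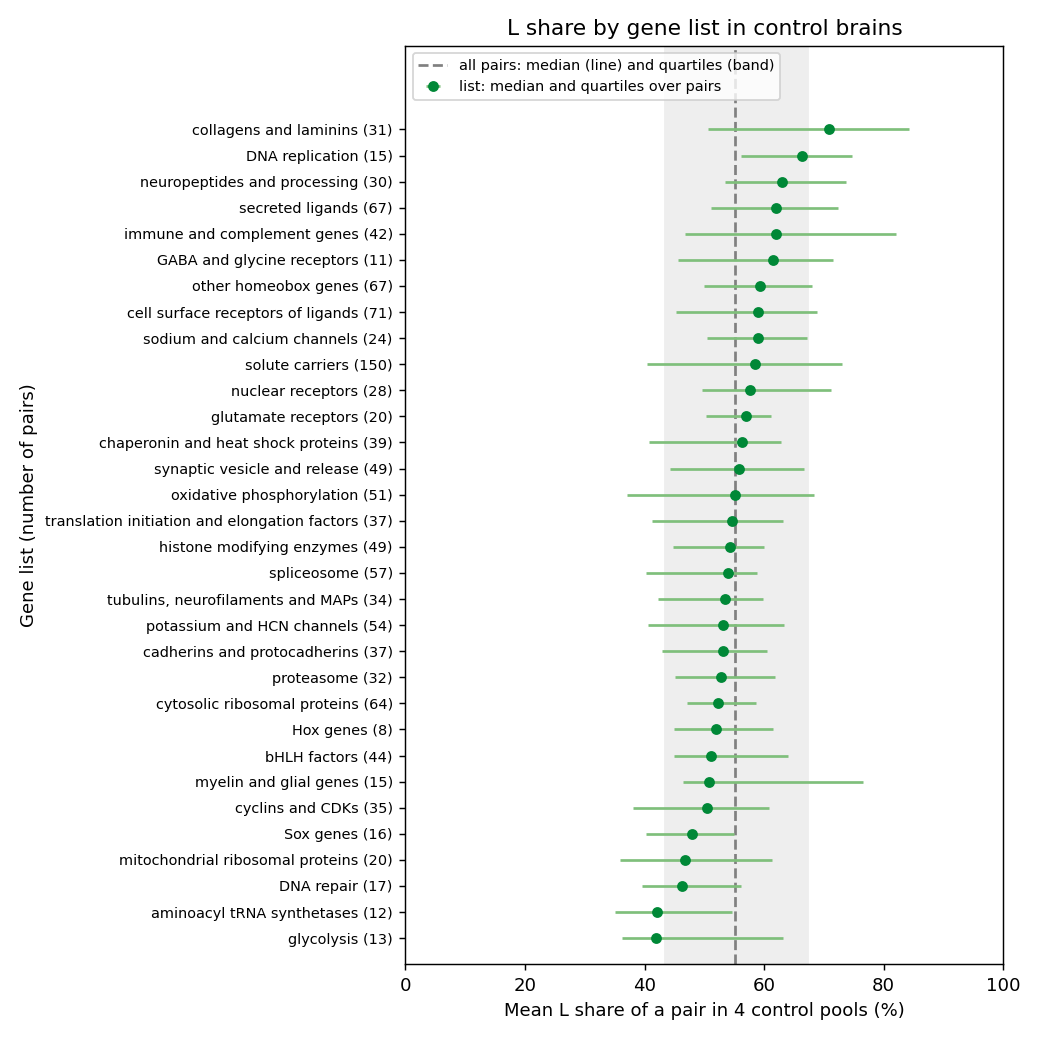
Median (point) and quartiles (line) of the mean share of L in percent over the pairs of each gene list, with the number of pairs in brackets, beside the median and quartiles of all 7584 pairs (dashed line and band). Collagens and laminins lie highest at 70.8% and glycolysis lowest at 41.9%, and the quartile range of each list overlaps that of all pairs.

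The translation machinery, which every cell needs, held both balanced pairs and near-silent copies. Of 64 pairs of cytosolic ribosomal proteins 42 were balanced (65.6%) and 2 had a near-silent S, *rpl3* and *rpl27a*, with a median share of 52.3%, 35 calls for L and 25 for S, which under TMM became 21 and 39. The list had a median of 722 CPM, and 50.7% of all pairs with at least 100 CPM were balanced. *rps2* was the most abundant at 952 to 1086 CPM from L and 709 to 823 CPM from S (56.9% ± 0.310). The lowest share was that of *rps21*, with 33.5, 25.8, 23.9 and 24.97 CPM from L against 170 to 201 CPM from S (12.9% ± 0.898). Translation initiation and elongation factors had 16 of 37 balanced, with 21 calls for L and 15 for S (17 and 18 under TMM). Their range ran from *eif3f* to *eif2b2*, a subunit of the exchange factor eIF2B, which had 35.6 to 40.1 CPM from L and 0.286 to 0.600 CPM from S. RefSeq annotates *eif2b2.S* as a long non-coding RNA. Mitochondrial ribosomal proteins had 7 calls for L and 9 for S in 20 pairs, and aminoacyl tRNA synthetases 4 and 7 in 12 pairs, and the order of calls was the same under TMM.

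Genes of energy metabolism held pairs that leaned far to either copy. Oxidative phosphorylation had 17 of 51 pairs balanced (33.3%), 29 calls for L and 20 for S (24 and 23 under TMM). Its most abundant pair, the ATP synthase β subunit *atp5f1b*, was also the one with the lowest share, with 108, 95.1, 111 and 102 CPM from L and 785, 770, 803 and 781 CPM from S (11.7% ± 0.537). The complex I subunit *ndufs1* was at the other end with 89.8% ± 0.817. Glycolysis had 3 of 13 balanced, 5 calls for L and 7 for S (5 and 8 under TMM). Its shares ran from 92.4% ± 0.725 for phosphoglycerate kinase *pgk1* to 13.9% ± 0.606 for muscle-type phosphofructokinase *pfkm*. The enolase *eno1* had a share of 49.7% ± 1.68 and did not pass the test (edgeR adjusted p = 0.605). Relative to the TMM centre it was called for S (edgeR adjusted p = 5.82e-08).

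In the lists of RNA processing and chromatin over 50% of the pairs were balanced, near the 50.7% of all pairs with at least 100 CPM. Their median abundance was 153 CPM (spliceosome) and 110 CPM (histone modifying enzymes). The spliceosome list had 31 of 57 balanced (54.4%), with *hnrnpdl*, an RNA-binding regulator of splicing, as the most abundant at 71.1% ± 0.703, and its 32 calls for L and 24 for S became 19 and 27 under TMM. Histone modifying enzymes had 27 of 49 balanced (55.1%) and no near-silent copy. *ezh2*, the methyltransferase of polycomb repressive complex 2, had the highest share at 82.2% ± 1.14, and *kat7*, a histone acetyltransferase, the lowest at 24.0% ± 0.973. The proteasome had 16 of 32 balanced, with 18 calls for L and 10 for S (14 and 16 under TMM).

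DNA replication genes leaned to L. Of 15 pairs, 11 were called for L and 2 for S (11 and 3 under TMM), 3 were balanced and the median share was 66.4%. *rpa2*, a subunit of the single-strand DNA-binding protein RPA, had 37.6, 30.1, 38.2 and 37.9 CPM from L and 2.12, 2.54, 3.16 and 2.57 CPM from S (93.2% ± 1.16). *cdt1*, which licenses replication origins, was the pair with the lowest share, at 24.6% ± 5.35. The ribonucleotide reductase subunit *rrm1* had 51.3% ± 2.03 and did not pass the test (edgeR adjusted p = 0.188). Relative to the TMM centre it was called for S (edgeR adjusted p = 0.000382). DNA repair genes had 6 calls for L and 9 for S in 17 pairs (4 and 11 under TMM), and cyclins and their kinases 16 and 14 in 35 pairs (11 and 17 under TMM).

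Among transcription factors, the homeobox list, which leaves out the Hox clusters, and the nuclear receptors leaned to L. Of 28 nuclear receptor pairs 16 were called for L and 7 for S (13 and 9 under TMM), with a median share of 57.7%. Of 67 homeobox pairs 44 were called for L and 16 for S (36 and 20 under TMM), with a median share of 59.3%. *gsx1*, known from mouse as a factor of ventral forebrain progenitors, had 15.5 to 17.6 CPM from L and 1.15 to 1.74 CPM from S (91.9% ± 1.48). *dbx1*, known from mouse as a factor of interneuron progenitors, had 14.8% ± 2.21, and *zfhx3*, the most abundant, 35.3% ± 2.08. Of 16 Sox pairs 5 were called for L and 8 for S (4 and 10 under TMM), with 2 in each direction over 2-fold, 8 balanced pairs and a median share of 48.0%. *sox21* had the highest share at 80.8% ± 1.82 and *sox12* the lowest at 11.4% ± 1.47. RefSeq gives *sox21.L* a span of 2779 bases and *sox21.S* one of 789, and the part of this difference in the share was not tested.

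*sox4*, the most abundant Sox pair, had 268, 275, 274 and 294 CPM from L and 242, 250, 261 and 284 CPM from S. Its share was 51.8% ± 0.873, with an edgeR call for L (adjusted p = 0.00922). The call was lost without control pool 1 (adjusted p = 0.0644) or pool 2 (adjusted p = 0.0529) and turned to S under TMM. With all 4 pools the call was also lost in limma on log2 ratios (adjusted p = 0.086) and in edgeR without the library as a block (adjusted p = 0.0799). Hox genes are little expressed outside the hindbrain and spinal cord, and 8 of 27 pairs were kept.

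Basic helix-loop-helix (bHLH) factors, which include the proneural genes, had 22 of 44 pairs balanced, 21 calls for L and 14 for S (17 and 22 under TMM). *id4*, an inhibitor of bHLH factors, was the most abundant with 710, 736, 660 and 710 CPM from L and 279 to 304 CPM from S (70.7% ± 0.746). *arnt*, a dimerisation partner of PAS domain factors, had the lowest share at 24.1% ± 1.08. *hes7.1*, a Hairy/E(spl) repressor, had 439 counts from L over the control pools and 0 from S, which allows a share of S of up to 0.683% (counting error only).

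Of the *neurod* genes, *neurod1*, *neurod2* and *neurod4* formed pairs that were kept. *neurod2*, which drives differentiation of neurons, had 36.7, 36.9, 38.7 and 33.4 CPM from L and 52.0, 48.0, 45.6 and 40.9 CPM from S. S was above L in every pool, and the share of L was 43.9% ± 1.97 (log2 ratio -0.35, SE 0.06, edgeR adjusted p = 1.1e-05). RefSeq places *neurod2.L* at 2320724 to 2324717 of chromosome 9_10L and *neurod2.S* at 2068438 to 2073641 of chromosome 9_10S. *neurod1* had 43.6, 34.3, 41.2 and 38.3 CPM from L and 39.3, 40.4, 40.2 and 35.9 CPM from S. These values overlapped (50.2% ± 2.97, log2 ratio 0.01, SE 0.06, edgeR adjusted p = 0.857). Relative to the TMM centre *neurod1* was called for S (edgeR adjusted p = 0.000327). *neurod4* had 15.7 to 17.96 CPM from L and 6.14 to 8.44 CPM from S, with L 2.30-fold higher (69.8% ± 1.80, edgeR adjusted p = 1.26e-10).

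Secreted signals leaned to L. Of 67 pairs of ligands 46 were called for L and 13 for S (36 and 15 under TMM), with a median share of 62.0%. The list had a median of 15.8 CPM, and all pairs with 5 to 20 CPM had a median share of 56.7%. *slit1*, a repellent guidance cue for axons, was the most abundant with 206, 202, 200 and 216 CPM from L and 68.5, 65.1, 63.9 and 69.5 CPM from S (75.5% ± 0.331). *bmp5*, a bone morphogenetic protein, had 3.97 to 5.05 CPM from L and 0, 1, 0 and 0 counts from S. *wnt1*, a signal of the midbrain-hindbrain boundary, had the lowest share at 16.7% ± 4.90. Their cell surface receptors had 45 calls for L and 22 for S in 71 pairs (38 and 29 under TMM), with the semaphorin receptor *plxna1* at 70.4% ± 1.18, the neuregulin receptor *erbb3* at 85.4% ± 3.35 and the ephrin receptor *ephb4* at 6.91% ± 0.462.

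Neuropeptides and their processing enzymes also leaned to L. Of 30 pairs 24 were called for L and 5 for S (19 and 8 under TMM), 8 were balanced and the median share was 63.0%. The convertase *pcsk6* had the highest share at 84.5% ± 0.839, and *crh*, corticotropin-releasing hormone, the lowest, with 1.12, 1.15, 1.22 and 1.14 CPM from L and 5.78, 6.83, 3.66 and 5.96 CPM from S (17.9% ± 4.77). Carboxypeptidase E, *cpe*, the most abundant of the list, had 51.7% ± 1.97. Its edgeR call for L (adjusted p = 0.0184) was lost without control pool 2 (adjusted p = 0.254) and turned to S under TMM. With all 4 pools the call was also lost in limma on log2 ratios (adjusted p = 0.173) and in edgeR without the library as a block (adjusted p = 0.0618).

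Neurotransmitter receptors and channels ranged from pairs of near-even copies to pairs led by 1 copy. Of 20 glutamate receptor pairs 12 were balanced, with 13 calls for L and 3 for S (10 and 7 under TMM). The AMPA receptor subunit *gria2* was balanced at 57.7% ± 0.541, while its paralogue *gria3* had 278, 291, 263 and 245 CPM from L against 49.2 to 55.7 CPM from S (83.9% ± 0.771) and *gria1* had 79.1 to 82.7 CPM from L against 185 to 195 CPM from S (30.0% ± 0.662). AMPA receptor subunits thus ranged from S-leaning to L-leaning. GABA and glycine receptors had 2 of 11 balanced, with 7 calls for L and 3 for S (7 and 3 under TMM). The glycine receptor subunit *glra1* had the lowest share at 8.69% ± 1.37, with 2.43, 3.37, 3.43 and 4.19 CPM from L and 32.0 to 38.5 CPM from S. The GABA-B receptor subunit *gabbr1* had 63.1% ± 0.616.

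Potassium and HCN channels had 26 calls for L and 17 for S in 54 pairs (19 and 26 under TMM). *kcnq1*, a voltage-gated channel with the highest share of the list, had a near-silent S copy at 0.0452 to 0.270 CPM and *kcnmb3*, an auxiliary subunit of calcium-activated channels, a near-silent L copy at 0.0386 to 0.185 CPM. Sodium and calcium channels had 16 calls for L and 4 for S in 24 pairs (13 and 9 under TMM). The calcium channel *cacna1a* had 50.7% ± 1.76 and did not pass the test (edgeR adjusted p = 0.367). Relative to the TMM centre it was called for S (edgeR adjusted p = 3.27e-06). *cacng6* had the lowest share at 13.4% ± 1.51.

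In the list of the synaptic vesicle the share of balanced pairs was near that of abundant pairs in general. Of 49 pairs 27 were balanced (55.1%), 30 were called for L and 13 for S (20 and 18 under TMM). The median abundance of the list was just above 100 CPM, and 50.7% of all pairs with at least 100 CPM were balanced. The list held 1 pair with a near-silent S and 1 with a near-silent L, against 2.94% and 1.31% of all pairs. The small GTPase *rab3d* had 96.7% ± 0.397 and *syt1* 0.571%. Tubulins, neurofilaments and microtubule-associated proteins had 18 of 34 balanced, 19 calls for L and 11 for S (11 and 17 under TMM), from *tubg1*, γ-tubulin of the centrosome, at 4.78% ± 0.551 to *tuba4b* at 72.8% ± 1.21.

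Collagens and laminins of the extracellular matrix had the highest median share of the lists at 70.8%. Of 31 pairs 22 were called for L and 7 for S (20 and 9 under TMM), 9 were balanced and 4 had a near-silent S. Those 4, of which all but *col4a2* were named after their values were seen, were *col4a1* (98.7%), *col4a2* (98.9%), *col4a5* (97.2%) and *lama4* (96.8%), which encode chains of basement membrane collagen IV and a laminin α chain of vessels. *col4a2* had 39.2, 40.03, 41.0 and 47.8 CPM from L and 0.424, 0.600, 0.497 and 0.238 CPM from S. *col18a1*, the most abundant, had 82.6% ± 0.746. *col6a5* had the lowest share, with 30.1, 27.4, 19.4 and 6.67% from L, at 0.0953 to 0.848 CPM from L and 1.33 to 2.44 CPM from S. Skin and cartilage markers were measurable in these pools, and their part in the matrix genes was not tested.

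Of 15 pairs of myelin and glial genes 1 had a near-silent S and 7 were balanced, 7 were called for L and 4 for S (7 and 8 under TMM). The astrocyte-type glutamate transporter *slc1a3* had 684, 619, 675 and 616 CPM from L and 220, 205, 235 and 196 CPM from S (75.2% ± 0.741). The gap junction gene *gja1* had 10.6 to 13.5 CPM from L and 0.154 to 0.429 CPM from S, and the peripheral myelin gene *mpz* had the lowest share at 24.0% ± 5.05. Immune and complement genes had a median of 14.3 CPM. Of their 42 pairs 29 were called for L and 10 for S (21 and 11 under TMM), and 4 had a near-silent S. These included those of *rela* (99.7%), *stat2* (97.8%) and *cfb* (96.6%), of which only *rela* was chosen by rule. *rela*, a subunit of NF-κB, had 36.8 to 39.7 CPM from L and 0.0477 to 0.193 CPM from S, and RefSeq gives its L copy a span of 29992 bases and its S copy one of 5622. The tetraspanin *cd81* had 34.1, 32.7, 32.9 and 29.9 CPM from L and 118, 106, 180 and 136 CPM from S, with S highest in control pool 4. Blood markers varied from 164 to 268 CPM over these pools, and their part in the immune genes was not tested.

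Most near-silent pairs were in none of these lists. Of the 223 pairs with near-silent S 28 were in a list (12.6%), and of the 99 with near-silent L 9 were (9.09%), against 16.2% of all pairs and 16.8% of the balanced pairs.

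The CRISPant pools, which were not used to form the classes, gave similar numbers of pairs in each class. Balanced pairs numbered 3213 in the CRISPants, near-silent S pairs 213 and near-silent L pairs 96. The class was the same in both groups for 6502 pairs (85.7%). Of the near-silent pairs, 194 of 223 and 87 of 99 kept their class, none became balanced, and the largest move of a mean share was 6.59 points. Over the CRISPant pools 3, 4, 7 and 9 the share of all pair counts from L was 53.5, 53.2, 53.2 and 53.4%. CRISPant pool 4 was high on chromosome 1S (median log2 deviation 0.12) and 2S (0.07), and CRISPant pool 7 was low on 2L (-0.15). In the same libraries the median share of L was 53.3% on chromosome pair 1 (pool 4) and 49.7% on chromosome pair 2 (pool 7).

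The ratio of L to S changed between control and CRISPant brains in 2228 pairs (29.4%) by edgeR's interaction test at an adjusted p under 0.05, 949 towards L (12.5%) and 1279 towards S (16.9%). Most changes were small. Over 2-fold were 66 towards L (0.87%) and 74 towards S (0.976%), and the median move of the mean share among changed pairs was 5.69 points. The share crossed 50% in 335 pairs. On chromosome pairs 6, 7 and 9_10 no control pool deviated by more than 0.02 in either direction. In a separate fit of these chromosome pairs alone, 267 of 1827 pairs changed towards L and 314 towards S. In the fit of all pairs, 27.1 to 32.2% of the pairs on each chromosome pair changed, but the direction differed. Towards L against towards S, the counts were 64 and 160 on chromosome pair 2, 74 and 190 on pair 3 and 71 and 145 on pair 4, while they were 112 and 58 on pair 5 and 128 and 84 on pair 8. On each of these chromosome pairs, and on pair 1 (110 and 174), 1 or more pools stood apart. The remaining pairs had 59 and 95 (pair 6), 70 and 65 (pair 7) and 121 and 139 (pair 9_10). The median log2 deviations of the CRISPant pools ranged from -0.02 to 0.03 on 6L and from 0.02 to 0.07 on 6S. The part of the pools that stood apart in these changes was not tested. Fewer cells of a type and less RNA per cell cannot be told apart in these ratios.

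*neurod2* itself, whose guide RNA matches both copies, had a share of L of 41.8% ± 0.984 in the CRISPants, and the change of its ratio did not pass the test (log2 change -0.13, SE 0.08, edgeR adjusted p = 0.259). The share of *neurod4* went from 69.8% to 64.9% ± 2.05 (log2 change -0.32, SE 0.12, edgeR adjusted p = 0.0413). In *kdm6b* the L copy had 279, 309, 297 and 273 CPM and the S copy 1773, 1700, 1619 and 1719 CPM in CRISPant pools 3, 4, 7 and 9. Both copies were below every control pool, and the share of L went from 24.6% to 14.5% ± 1.03 (log2 change -0.94, SE 0.07, edgeR adjusted p = 2.25e-08). In *tuba1b* the L copy had 1189, 1127, 995 and 1110 CPM and the S copy 1180, 1165, 1106 and 1062 CPM, so that an S-leaning pair became balanced at 49.5% ± 1.61 (log2 change 0.85, SE 0.05, edgeR adjusted p = 8.51e-15). In *rrm1* the share went from 51.3% to 37.4% ± 2.46 (log2 change -0.82, SE 0.07, edgeR adjusted p = 7.43e-10), with 83.9, 82.4, 76.4 and 93.5 CPM from L and 131, 129, 149 and 156 CPM from S.

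**Figure D5:**
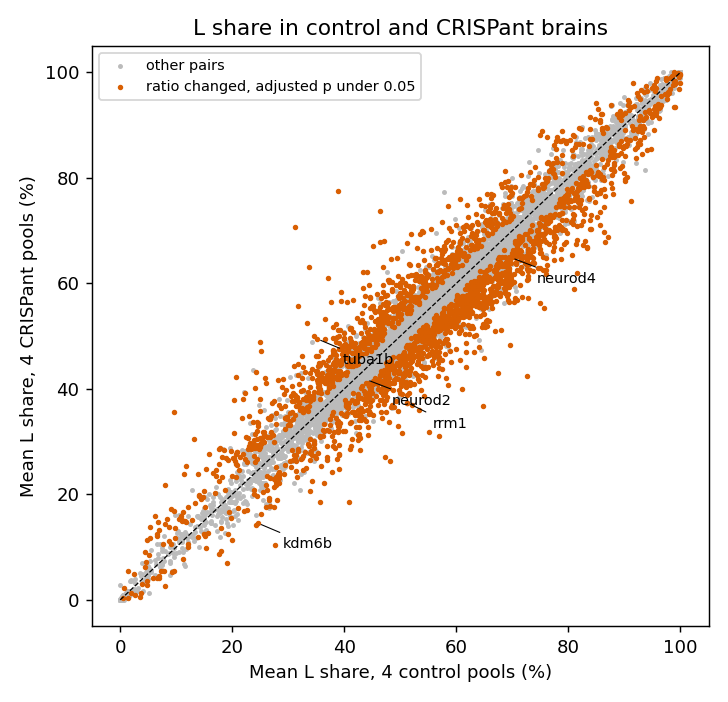
Mean share of L in percent in the 4 control pools (horizontal) and the 4 CRISPant pools (vertical) for each of the 7584 pairs, with the 2228 pairs whose ratio changed in orange and the line of equal shares dashed. Pairs lie along the line from corner to corner, while *kdm6b* and *rrm1* lie below it and *tuba1b* above.

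Some pairs differed between pools of siblings. Among pairs with at least 20 CPM, those with the largest SD of the share over control pools were picked after their values were seen, and no test was made of them. *dsp*, which encodes the desmosomal plaque protein desmoplakin, had shares of 69.8, 64.4, 88.0 and 86.5% (SD 11.8 points). Its L copy had 38.1, 31.5, 104 and 103 CPM while its S copy had 16.5, 17.4, 14.1 and 16.1 CPM, so the larger difference was in the L copy. The deacetylase *sirt1* had shares of 35.9, 26.0, 47.7 and 39.0%, with L at 13.5, 9.23, 22.7 and 16.8 CPM and S at 24.1 to 26.4 CPM. *stimate*, on chromosome pair 4 where control pool 4 stood apart, had shares of 37.7, 53.0, 56.8 and 40.1% (SD 9.42 points), with L at 31.5, 52.6, 54.96 and 32.5 CPM and S at 41.8 to 52.1 CPM. In *phlpp2* (SD 9.38 points), also on chromosome pair 4, both copies moved, with L at 25.6, 25.5, 30.8 and 27.4 CPM and S at 31.7, 32.1, 17.1 and 27.6 CPM. In *slc25a46*, a carrier-family protein of the outer mitochondrial membrane, L had 4.93, 5.31, 3.21 and 12.3 CPM and S 25.3 to 26.0 CPM. *mea1* and *ccdc25* lie on chromosome pair 5, where control pools 4 and 5 were high on 5S. Neither S copy was highest in both of these pools. In *mea1* L varied from 21.2 to 23.4 CPM and S had 12.6, 9.37, 11.8 and 21.7 CPM. In *ccdc25* L varied from 30.0 to 33.9 CPM. Its S copy had 10.02, 14.7, 14.9 and 5.15 CPM and was lowest in control pool 5. The pools of 4 brains come from 1 sibship, and the cause of these differences was not tested.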

How the data were processed

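Total RNA of pooled brains was made into stranded mRNA libraries, and single reads were mapped by the authors to XENLA_10.1 with DRAGEN and counted per gene with FeatureCounts. The deposited table holds these raw read counts of 41881 genes in 8 libraries, not normalised. Strand and multi-mapping settings are not given in the sources used here. Each column was matched to a pool by its library name. Total counts were 20985937 to 25937707 in the control pools, and intervals and floors cover counting error only.

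L and S counts of the 4 control pools were tested in edgeR 4.0.16 (R 4.3.3) with robust glmQLFit and glmQLFTest, the library as a block and the library total shared by L and S as library size, so that a shift of all L copies is kept. The pairing of L with S comes from the library itself. The change of ratio was the interaction of homeologue and group in all 8 libraries. P-values were Benjamini-Hochberg adjusted over 7584 pairs. Tests were checked on simulated data. Alternatives were TMM and median-of-ratios factors, DESeq2 1.42.0, limma 3.58.1 on log2 ratios (pseudocount 0.5), no robust option, glmTreat at 1.5-fold, no block, other filters and limits, and each pool left out.

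Named pairs were the 10 most abundant, the 8 most abundant with each near-silent copy, the most abundant, highest and lowest pair of each list discussed, and the *neurod* genes. Some pairs that the rule picked are not reported here. RefSeq (v10.1) gave positions. Members, lists and rules were chosen with earlier results of these data known.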

Additional observations from a re-analysis of the deposited data

Results flagged for a closer look

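In 94 sets of 4 control pools, 1 pool stood apart from the other 3 by Dixon's criterion in 12. Chance gives this in about 1 of 20 independent sets of normally distributed values. Some of the sets here overlap in content or rest on single counts, so the 12 cannot be judged against that rate. Control pool 4 stood apart in the share of all pair counts from L (53.9%), in the number of pairs with more L than S (4743), in the median share of chromosome pair 4 (56.8%), and in the share of *cirbp* (45.8%), *mapt* (63.3%), *syne1* (99.98%, from 1 count of S) and *crh* (25%). Control pool 5 stood apart in *sf3a1* (99.8%) and *hmga2* (99.7%), pool 2 in *elk4* (7.90%) and *bmp5* (98.9%, from 1 count of S), and pool 1 in *rps21* (14.3%).

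The log2 ratio of L to S differed between control and CRISPant pools in 37 of the 82 named pairs (45.1%, against 29.4% of all pairs) by edgeR's interaction test. Many named pairs were picked for high abundance, where shares vary less between pools, and the part of abundance in this difference was not tested. Towards L, the log2 change was 1.07 in *mpz*, 1.01 in *cd40*, 0.85 in *tuba1b*, 0.54 in *cacng6*, 0.53 in *kat7*, 0.49 in *tubb2b*, 0.47 in *dbx1*, 0.42 in *glra1* and 0.38 in *atp5f1b*. Smaller changes towards L were 0.22 in *gria1*, 0.21 in *hnrnpdl*, 0.21 in *slit1*, 0.18 in *eef1a1* and 0.15 in *actg1*. Towards S, the log2 change was -2.002 in *ifitm1*, -1.35 in *rpa2*, -1.15 in *hmga2*, -1.03 in *syt1*, -0.94 in *kdm6b*, -0.82 in *rrm1*, -0.80 in *eif2b2*, -0.67 in *rbp4*, -0.64 in *ephb4*, -0.54 in *ndufs1*, -0.42 in *tubg1* and -0.37 in *tpr*. Smaller changes towards S were -0.35 in *ezh2*, -0.33 in *tuba1a*, -0.32 in *neurod4*, -0.26 in *pfkm*, -0.25 in *gabbr1*, -0.22 in *col18a1*, -0.22 in *slc1a3*, -0.19 in *id4*, -0.19 in *gria2*, -0.17 in *plxna1* and -0.12 in *actb*. In *ifitm1* and *syt1* the change was in a near-silent L copy, at 0.259 to 0.633 CPM and 0.666 to 0.897 CPM in the CRISPants. *rbp4*, *tpr* and *tubg1* also had a near-silent L copy. *hmga2* and *eif2b2* had a near-silent S copy, with means of 0.193 and 0.41 CPM in the controls and 0.616 and 1.07 CPM in the CRISPants. The mean share of S in the controls was 0.153% in *hmga2* and 1.08% in *eif2b2*.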

How the results depend on the processing

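The counts of calls for L and S within control pools were within 1.5 times the reported ones under every scaling, tool and filter named in the methods except glmTreat against a 1.5-fold difference (2678 for L, 1322 for S). TMM gave 3308 and 3286 and median of ratios 3333 and 3261 (50.6% of calls for L). With either scaling, the log2 ratio reversed in *neurod1* (-0.28 and -0.27), *rrm1* (-0.22 and -0.21), *sox4* (-0.19 and -0.18), *cacna1a* (-0.26 and -0.25) and *cpe* (-0.19 and -0.19). For named pairs, 1205 values under alternatives kept direction and side of the threshold, 17 lost the call, 2 gained it in the same direction and the 10 reversals above passed the test, those of *neurod1*, *rrm1* and *cacna1a* in pairs not called in the reported fit. Without the replicate block of the library, the calls were 4110 and 2379. Leaving out each control pool gave 4078 to 4100 and 2334 to 2407 calls, median shares of 54.97 to 55.2% and 3049 to 3091 balanced pairs, and leaving out each of the 8 pools gave 817 to 911 changes towards L and 1081 to 1156 towards S.

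Chromosome pairs 1, 2, 6, 7 and 9_10 alone, chosen after seeing the data, hold 3628 pairs, with 1996 calls for L and 1167 for S (897 and 415 over 2-fold), a median share of 54.8%, 2231 pairs with more L and 1397 with more S, and 1553 balanced, 85 near-silent S and 35 near-silent L pairs. Changes of ratio in a separate fit of pairs 6, 7 and 9_10 alone numbered 267 and 314 of 1827. These lower counts come with fewer pairs. The median share was 54.7% at 10 CPM and above. Balanced pairs numbered 1652 from 45 to 55% and 4655 from 33.3 to 66.7%. Near-silent S pairs numbered 388 with no filter, 147 at 10 CPM and above, 134 at a limit of 2% and 383 at 10%, and near-silent L pairs 226 with no filter, 65 at 2% and 167 at 10%. With RefSeq spans within 2-fold, also chosen after seeing the data, they numbered 124 and 48. Alternatives on transcript length and on protein identity were not run because neither was given. No paired analysis was possible between control and CRISPant pools because their labels share only number 4. Depth limits the share of pairs near 2 CPM, and the unknown handling of reads that match both copies limits every share.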
